A study of Mus musculus with 2 samples.

Results

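The genes described here encode the core cell cycle machinery, and they were compared between lymphomas from 2 sites in L-DKO mice, a Peyer's patch (the gut lymphoma in what follows) and the thymus (the thymus lymphoma). Members were all genes of the deposited table whose symbol belongs to the cyclins with a numbered letter, the numbered cyclin-dependent kinases (CDKs) and their Cdkn inhibitors, the E2F factors and their DP partners (Tfdp), the CDC25 phosphatases, the pocket proteins Rb1, Rbl1 and Rbl2, and Wee1. Of 47 matching symbols, Ccnd2 and Cdkn1b were left out by the rule, which left 45 of 8249 genes. They comprised 12 cyclins, 11 CDKs, 7 E2F factors, 2 DP partners, 3 pocket proteins, 3 CDC25 phosphatases, Wee1, and 6 genes that only carry the name of a CDK or an inhibitor as a partner. The label of the gene group includes inhibitors, but of the 7 other Cdkn genes looked for, 0 were measured, so no member is a CDK inhibitor of the Cdkn family.

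Neither lymphoma stained with the CD1d tetramer, the reagent that marks invariant natural killer T cells. The gut lymphoma was taken at 26 weeks of age and the thymus lymphoma at 30 weeks, each from 1 mouse. Peyer's patches are lymphoid follicles of the small intestine. The labels give only the name L-DKO. In published work on these mice it stands for Id2 and Id3, inhibitors of E proteins, deleted in T lineage cells by a Cre driven by the Lck promoter. Both lymphomas share that genotype, and tumour-free tissue and tetramer-positive tumours were not analysed here. As each site has 1 library, the differences have no replicates and were not tested, and site, mouse and age cannot be told apart.

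Progress through the cell cycle is driven by CDKs, which are active only when bound to a cyclin. D-type cyclins with CDK4 or CDK6 phosphorylate the retinoblastoma protein in G1, which frees E2F factors to switch on genes of S phase. Cyclin E and cyclin A with CDK2 then drive DNA replication, and cyclin B with CDK1 drives mitosis. WEE1 holds CDK1 inactive by phosphorylation, and CDC25 phosphatases remove that phosphate. Developing T cells divide fast at defined stages, and cyclin D3 is a main D-type cyclin of dividing thymocytes.

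Levels are given as FPKM, a fragment number divided by transcript length and by library size, so that genes can be compared per length. FPKM was computed from deposited values read as log2(FPKM + 1). A difference is log2(FPKM + 1) of the gut lymphoma minus that of the thymus lymphoma, so a positive difference means higher in the gut lymphoma. A difference of at least 2, or 4-fold, was the threshold for calling a gene apart. Folds in such calls are folds of FPKM + 1, which for low genes are smaller than the ratio of FPKM. Sequencing depth is unknown for these values, and intervals for counting error cannot be computed.

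Most of the cell cycle genes lay within 2-fold between the lymphomas, and the few wide gaps went in both directions. All 45 members passed the filter of 1 FPKM in at least 1 library, and 34 had at least 10 FPKM in both. Of the 45, 1 was at least 4-fold higher in the gut lymphoma, where the share over all 8245 genes kept was 7.84%. In the other direction 3 were at least 4-fold higher in the thymus lymphoma, against 12.0% of all genes. In either direction that was 4 of 45, against 19.9%. At 2-fold, 10 members were higher in the gut lymphoma and 8 in the thymus lymphoma, beside 24.7% and 25.5% of all genes. Together these were 18 of 45, beside 50.2%. The remaining 27 members, or 60.0%, lay within 2-fold, beside 49.8% of all genes. The median difference was 0.33 over the members and 0.05 over all genes kept, with 27 members above 0 and 18 below.

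This balance depended on scaling. With both libraries brought to the same total FPKM, 5 members were at least 4-fold higher in the gut lymphoma, beside 14.5% of all genes. In the thymus lymphoma 2 were, beside 7.77%. With the authors' standard scores the counts were 3 and 2, beside 14.8% and 7.57% of all genes. The share of calls over all genes that were higher in the gut lymphoma went from 39.5% to 65.1% and 66.1%, and the median of all genes moved by 0.52 and 0.43. Of the members, 36 kept their direction under all 8 alternatives run. The other 9 had differences of at most 0.60 in size and are marked as such where they are named. Ratios of FPKM between 2 genes within a library do not change when a library is multiplied by a factor, although they do with the standard scores.

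**Figure D1:**
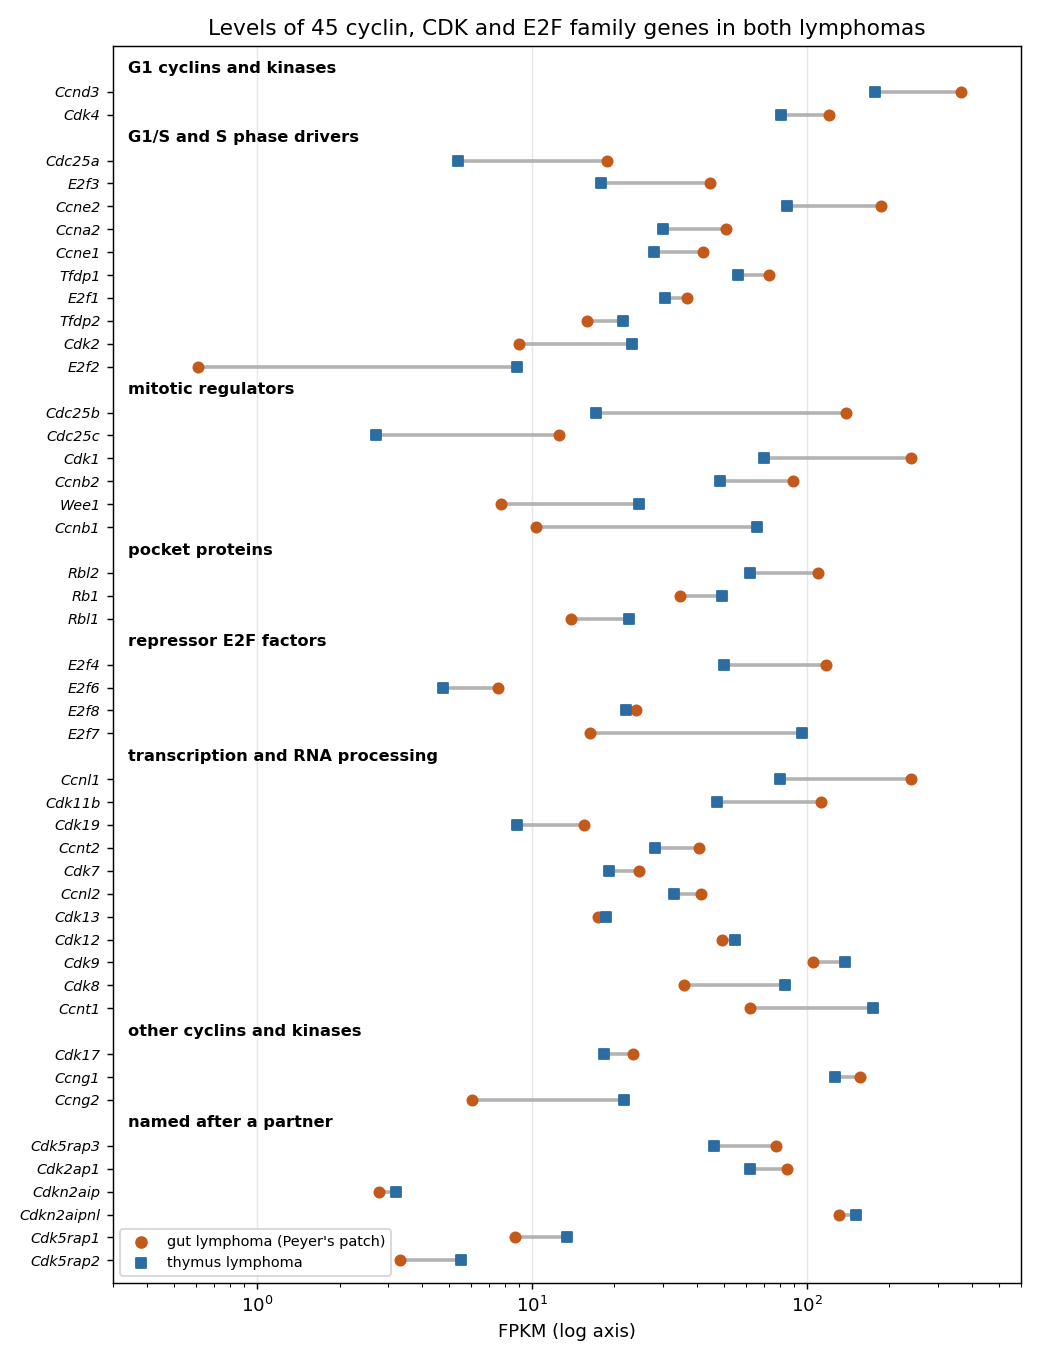
FPKM (log axis) of each of the 45 members in the gut lymphoma (circles) and the thymus lymphoma (squares), 1 library each, grouped by role. Most pairs lie close together, and the longest bars belong to E2f2, Cdc25b, Ccnb1 and E2f7.

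The mitotic regulators had the widest range of any role, and they split in direction. Of 6 measured genes 4 were higher in the gut lymphoma, beside 51.4% of all genes, and 2 in the thymus lymphoma. Only Ccnb2 lay within 2-fold, beside 49.8% of all genes. The median difference of the 6 was 1.32, with a range from -2.56 to 2.95. Cdk1, the kinase that drives mitosis, was at 240 FPKM in the gut lymphoma, where it ranked 2nd of the 45 members, and at 69.8 FPKM in the thymus lymphoma, a difference of 1.77. Cdc25b, a phosphatase that activates CDK1 at the start of mitosis, was at 139 and 17.2 FPKM. Its difference of 2.95 was the largest in that direction among the members, and it was past 4-fold under each of the 8 alternatives. Cdc25c, a second phosphatase of CDK1, was low in both lymphomas at 12.6 and 2.71 FPKM, a difference of 1.87. Wee1, the kinase that inhibits CDK1, went the other way at 7.76 and 24.5 FPKM, a difference of -1.54. Pkmyt1, no member but the other kinase that inhibits CDK1, was higher in the gut lymphoma at 10.4 and 2.85 FPKM, a difference of 1.57 and opposite to Wee1. Within a library, Cdc25b stood at 17.9 times Wee1 in the gut lymphoma and at 0.701 times Wee1 in the thymus lymphoma. Cdk1 stood at 30.9 times and 2.85 times Wee1.

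The B cyclins, both of which partner CDK1, swapped places. Their summed level as deposited was 1.15-fold higher in the thymus lymphoma. That gap is smaller than the gap between the summed FPKM of the libraries (3.42e+06 and 4.97e+06). The direction of the cyclin B sum therefore turns with libraries brought to the same total. Ccnb1, cyclin B1, was at 10.4 FPKM in the gut lymphoma and 66.1 in the thymus lymphoma, a difference of -2.56. Ccnb2, cyclin B2, was at 89.2 and 48.5 FPKM, a difference of 0.87. The sum of both was 99.6 and 115 FPKM. Ccnb1 thus made up 10.4% of cyclin B transcripts by FPKM in the gut lymphoma and 57.7% in the thymus lymphoma. The ratio of Ccnb2 to Ccnb1 was 8.61 and 0.733, which is 11.7 times as high in the gut lymphoma. Ccnb1 remained at least 4-fold higher in the thymus lymphoma under all 8 alternatives, between -2.66 and -2.04, and Ccnb2 stayed higher in the gut lymphoma, between 0.81 and 1.40. The value of Ccnb1 is uncertain, because 3 mouse pseudogenes match 51.7 to 52.0% of its longest coding transcript at 97.3 to 99.2% identity. How reads that match several places were assigned is not given in the sources used here. For Ccnb2 and Cdk1 no such copy was found in GENCODE M21, the annotation searched, at 95% identity over at least 300 bases.

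The promoters of these genes are shown because cyclin B1, cyclin B2 and CDK1 are textbook examples of jointly timed genes, and here the cyclins parted. Each window runs from 250 bases before to 50 bases after the start in RefSeq, build GRCm38.p6, which is not the mm9 build of the expression values. Capitals mark CCAAT, the box bound by NF-Y, and TTTGAA, a form of the CHR element of genes of late cell cycle stages. They also mark the E2F words TTTCCCGC, TTTCGCGC, TTTGCCGC and TTTGGCGC. Other forms of the CHR element were not searched. Both strands were searched, and no printed base belongs to 2 matches. Ccnb1 lies at chr13:100786437-100786736 on the minus strand, Ccnb2 at chr9:70421505-70421804 on the minus strand, Cdk1 at chr10:69352863-69353162 on the minus strand and Cdc25b at chr2:131186698-131186997 on the plus strand.
Ccnb1: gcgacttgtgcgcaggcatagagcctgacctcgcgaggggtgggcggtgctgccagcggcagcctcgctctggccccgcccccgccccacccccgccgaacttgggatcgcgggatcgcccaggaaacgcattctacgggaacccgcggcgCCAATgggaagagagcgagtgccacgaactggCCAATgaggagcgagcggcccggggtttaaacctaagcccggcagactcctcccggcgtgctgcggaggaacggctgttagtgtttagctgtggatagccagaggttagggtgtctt
Ccnb2: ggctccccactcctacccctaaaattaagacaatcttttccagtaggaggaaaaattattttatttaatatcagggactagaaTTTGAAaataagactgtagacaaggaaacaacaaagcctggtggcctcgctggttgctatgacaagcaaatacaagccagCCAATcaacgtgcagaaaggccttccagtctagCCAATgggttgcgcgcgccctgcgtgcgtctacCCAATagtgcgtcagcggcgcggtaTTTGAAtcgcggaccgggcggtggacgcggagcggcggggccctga
Cdk1: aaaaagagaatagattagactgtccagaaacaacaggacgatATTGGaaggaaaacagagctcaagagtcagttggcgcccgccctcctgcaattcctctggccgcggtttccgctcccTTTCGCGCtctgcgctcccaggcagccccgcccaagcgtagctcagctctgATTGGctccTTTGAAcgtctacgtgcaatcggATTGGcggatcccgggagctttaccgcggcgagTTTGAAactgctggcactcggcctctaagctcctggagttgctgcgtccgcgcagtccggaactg
Cdc25b: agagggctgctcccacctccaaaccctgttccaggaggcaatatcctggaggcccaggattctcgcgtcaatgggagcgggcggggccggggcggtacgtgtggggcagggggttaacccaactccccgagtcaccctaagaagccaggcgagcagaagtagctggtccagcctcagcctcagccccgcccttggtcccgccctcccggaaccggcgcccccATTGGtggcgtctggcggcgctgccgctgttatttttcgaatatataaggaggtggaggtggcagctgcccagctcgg
The Ccnb2 window held 3 CCAAT boxes and 2 CHR words, and the Cdk1 window 3 CCAAT boxes, 2 CHR words and 1 E2F word. The Ccnb1 window held 2 CCAAT boxes and the Cdc25b window 1, and neither held TTTGAA or the E2F words searched. The printed Ccnb1 window does hold TTTAAA and the Cdc25b window TTCGAA, which each differ from TTTGAA by 1 base. These words were not counted over the windows. The lack of TTTGAA in Ccnb1 and Cdc25b therefore does not show that they lack a CHR element. Of 32851 windows of the same length in the table, 37.4% held CCAAT, 17.9% the CHR word and 2.26% an E2F word. Both CCAAT and the CHR word were found in 6.95% of the windows. A match describes letters and does not show binding.

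Of the 4 genes listed for G1, Ccnd3 and Cdk4 were measured, and both were higher in the gut lymphoma by about 2-fold or less. Ccnd2, the D-type cyclin that the rule left out, went the other way at 3.37 and 30.5 FPKM, a difference of -2.85, and is not in the median of this role. Cdkn1b, also left out by the rule, encodes the CDK inhibitor p27 and was at 5.43 and 25.9 FPKM, a difference of -2.07. Ccnd3, cyclin D3, was the most abundant member in both lymphomas, at 364 FPKM in the gut lymphoma and 177 in the thymus lymphoma, a difference of 1.04. Cdk4, its kinase partner, was at 121 and 80.5 FPKM, a difference of 0.58. Cyclin D3 stood at 3.01 times Cdk4 in the gut lymphoma and 2.19 times in the thymus lymphoma, so the pair kept a similar proportion. Both genes overlap a neighbour on the opposite strand, Ccnd3 with Bysl and Cdk4 with Tspan31. Bysl was at 26.7 and 5.56 FPKM and Tspan31 at 1.06 and 12.9, and whether counting used the strand is not given in the sources used here. Ccnd3 also has a pseudogene that matches at 96.3% identity.

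Of 10 measured drivers of S phase 7 were above 0, beside 51.4% of all genes, and Cdk2, E2f2 and Tfdp2 were below. Their median difference was 0.47. Ccne2, cyclin E2, was at 187 and 84.9 FPKM, a difference of 1.13. Ccne1, cyclin E1, was at 41.8 and 27.9 FPKM, a difference of 0.57. Cyclin E2 made up most of the cyclin E sum in both, at 81.7% and 75.3%. Ccna2, cyclin A2, which acts in S phase and again before mitosis, was at 51.1 and 29.9 FPKM, a difference of 0.75. Their kinase partner went the other way, with Cdk2 at 8.96 FPKM in the gut lymphoma and 23.2 in the thymus lymphoma, a difference of -1.28. Cyclin E2 therefore stood at 20.8 times Cdk2 in the gut lymphoma and 3.66 times in the thymus lymphoma, and cyclin A2 at 5.70 and 1.29 times. Cdc25a, the phosphatase that activates CDK2, was at 18.9 and 5.41 FPKM, a difference of 1.63. Cdc25a passed 4-fold with libraries brought to the same total, at 2.11, and with the standard scores, at 2.39. All 3 CDC25 genes were higher in the gut lymphoma, with a sum of 170 FPKM against 25.3. The Ccna2 and Ccne2 transcripts also overlap neighbours on the opposite strand, Exosc9 at 83.0 and 117 FPKM and Ints8 at 109 and 54.2.

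The activating E2F factors, which switch on genes of S phase, differed one from another. E2f1 was at 36.6 FPKM in the gut lymphoma and 30.7 in the thymus lymphoma, a difference of 0.25. E2f3 was at 44.6 and 17.9 FPKM, a difference of 1.27. E2f2 was at 0.611 and 8.87 FPKM, a difference of -2.62. In the gut lymphoma E2f2 was the lowest of the 45 members, and it was the only one under 1 FPKM. E2f2 made up 0.746% of the activator sum in the gut lymphoma and 15.4% in the thymus lymphoma. At such a low level the size of the difference is uncertain. It was -1.31 with a pseudocount of 5 and -1.65 with the standard scores, both short of 4-fold, and -3.66 with a pseudocount of 0.1. The DP partners, with which E2F1 to E2F6 bind DNA, lay within 2-fold. Tfdp1, which has a pseudogene at 97.6% identity, was at 72.8 and 56.4 FPKM. Tfdp2 was at 15.9 and 21.6, and its direction flipped with libraries brought to the same total and with the standard scores.

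Among the repressive E2F factors, E2f7 and E2f4 went in opposite directions. E2f7 and E2f8 encode atypical factors that bind without a DP partner and lower the transcription of E2F targets. E2f7 was at 16.2 FPKM in the gut lymphoma and 96.6 in the thymus lymphoma, a difference of -2.50. E2f7 was past 4-fold in 7 of 8 alternatives and stood at -1.98 with libraries brought to the same total. E2f8 was at 24.0 and 22.1 FPKM, a difference of 0.12. The ratio of E2f7 to E2f8 was 0.675 and 4.37. E2f4, the main partner of p130 in resting cells, was at 118 and 49.9 FPKM, a difference of 1.22. E2f6, a factor tied to Polycomb repression, was low in both at 7.52 and 4.75 FPKM. The windows of both E2F genes past 4-fold are given in the same way, E2f2 at chr4:136172024-136172323 on the plus strand and E2f7 at chr10:110745189-110745488 on the plus strand.
E2f2: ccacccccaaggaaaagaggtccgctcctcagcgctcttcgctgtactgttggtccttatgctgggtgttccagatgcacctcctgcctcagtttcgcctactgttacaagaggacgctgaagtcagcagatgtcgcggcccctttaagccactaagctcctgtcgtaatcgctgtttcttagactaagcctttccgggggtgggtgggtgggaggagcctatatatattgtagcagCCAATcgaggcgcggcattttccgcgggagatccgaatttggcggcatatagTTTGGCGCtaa
E2f7: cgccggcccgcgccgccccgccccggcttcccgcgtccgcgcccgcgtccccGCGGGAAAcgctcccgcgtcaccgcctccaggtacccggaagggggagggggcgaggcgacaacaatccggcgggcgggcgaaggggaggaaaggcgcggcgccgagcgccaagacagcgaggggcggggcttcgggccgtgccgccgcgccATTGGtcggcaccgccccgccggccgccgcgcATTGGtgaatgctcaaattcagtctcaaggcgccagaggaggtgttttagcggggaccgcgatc
Each window held 1 E2F word, which in E2f2 lay after the start. Over the 37 members with a window in the table, 8 held an E2F word at the first listed start, or 21.6%, beside 2.26% of all windows. All windows include further starts of the same gene, so these shares are over unlike sets. The 8 members were Cdc25a, Cdk1, Cdk2, E2f2, E2f3, E2f7, Rbl1 and Tfdp1. Of these, Cdc25a, Cdk1, E2f3 and Tfdp1 were higher in the gut lymphoma and Cdk2, E2f2, E2f7 and Rbl1 in the thymus lymphoma. The CHR word was found in 7 members, or 18.9%, and CCAAT in 17, or 45.9%.

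The pocket proteins, which bind E2F factors and hold their targets down, lay within 2-fold. Rbl2, which encodes p130, was at 110 FPKM in the gut lymphoma and 62.1 in the thymus lymphoma, a difference of 0.81, and it overlaps Aktip on the opposite strand (49.4 and 22.0 FPKM). Rb1, the retinoblastoma gene, was at 34.5 and 49.4 FPKM, a difference of -0.50 that turned to 0.02 with libraries brought to the same total. Rbl1, which encodes p107, was at 13.9 and 22.7 FPKM, a difference of -0.67. The summed pocket protein level was 158 and 134 FPKM. Rbl2 made up 69.4% of it in the gut lymphoma and 46.3% in the thymus lymphoma. E2f4 and Rbl2, which act together, stood at a ratio of 1.07 and 0.804.

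**Figure D2:**
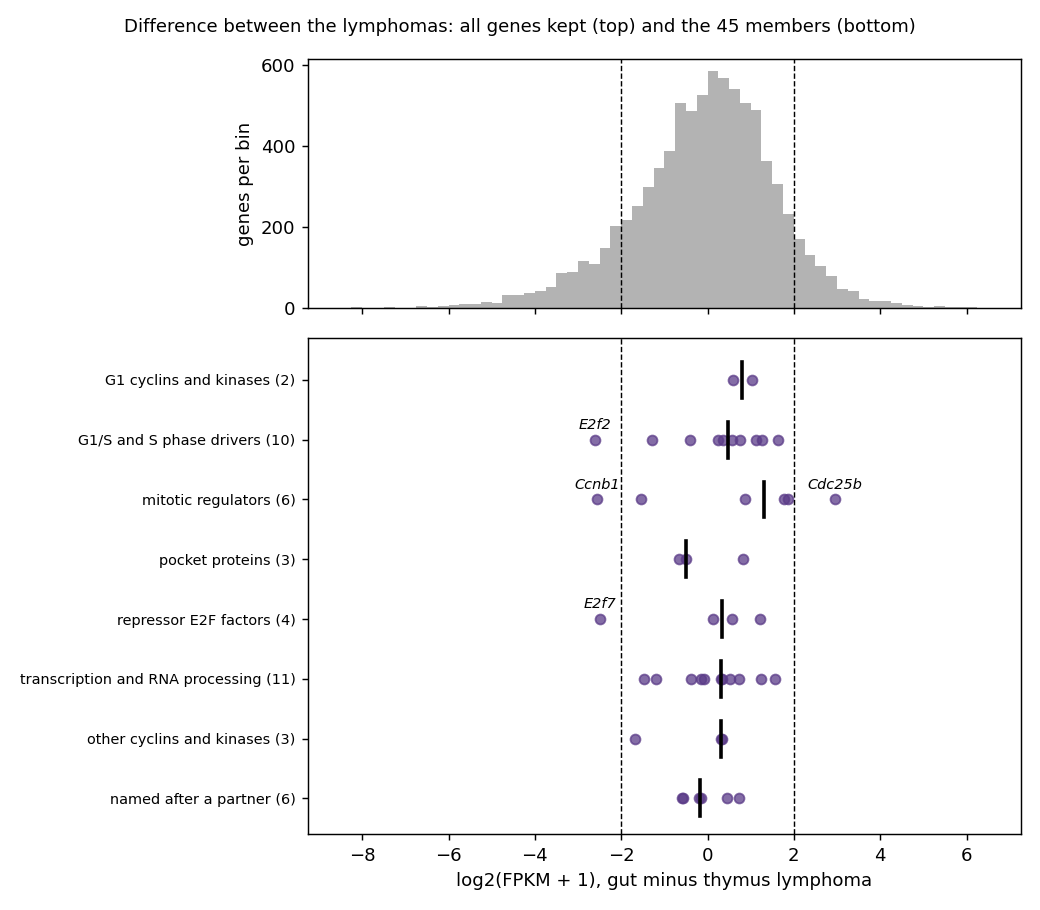
The histogram (top) counts all 8245 genes kept by their log2(FPKM + 1) difference, gut minus thymus lymphoma, and the rows below place the 45 members by role. Points are genes, black bars are medians, numbers in brackets are measured genes and dashed lines mark 4-fold. Named points are the 4 members past 4-fold, and the mitotic regulators spread from -2.56 to 2.95.

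Set side by side, the medians of the G1, S phase and mitotic roles were 0.81, 0.47 and 1.32, each above the 0.05 of all genes. These rest on 2, 10 and 6 genes, and the ranges of the roles overlapped. The S phase genes ran from -2.62 to 1.63 and the G1 genes from 0.58 to 1.04, and the mitotic genes from -2.56 to 2.95. Measured from the median of all genes under each setting, the mitotic median lay between 0.96 and 1.28, that of G1 between 0.48 and 0.78, and that of S phase between 0.38 and 0.42.

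CDKs and cyclins of transcription, which act on RNA polymerase II or on splicing, showed smaller differences and again a mixture of directions. None of 11 was past 4-fold, beside 19.9% of all genes, and the median difference of the 11 was 0.32. Ccnt1, cyclin T1 of the elongation factor P-TEFb, was at 62.4 FPKM in the gut lymphoma and 175 in the thymus lymphoma, a difference of -1.47. Its alternative subunit Ccnt2 was at 40.5 and 28.1 FPKM, a difference of 0.51. Cdk9, the kinase of P-TEFb, was at 106 and 138 FPKM, and its direction flipped with libraries brought to the same total. Cyclin T1 made up 60.6% of cyclin T in the gut lymphoma and 86.2% in the thymus lymphoma. The kinases of the Mediator complex differed in the same manner. Cdk8 was at 35.9 and 83.6 FPKM, a difference of -1.20, and its paralogue Cdk19 at 15.4 and 8.87, a difference of 0.74. Cdk8 was 2.32 times Cdk19 in the gut lymphoma and 9.43 times in the thymus lymphoma. Cdk8 also has a pseudogene that matches at 98.3% identity over 24.1% of its transcript.

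Cyclin L and its kinase, which act in splicing, were higher together in the gut lymphoma. Ccnl1 was at 239 FPKM there and 79.9 in the thymus lymphoma, a difference of 1.57 that passed 4-fold with libraries brought to the same total (2.11). Cdk11b was at 113 and 47.1 FPKM, a difference of 1.24, and Ccnl2 at 41.4 and 33.0, a difference of 0.32. Cdk7, the kinase that activates other CDKs and belongs to the transcription factor TFIIH, was at 24.5 and 19.1 FPKM. Cdk12 (49.0 and 54.9 FPKM) and Cdk13 (17.5 and 18.7), the elongation kinases bound to cyclin K, lay closest of these, and their directions flipped with libraries brought to the same total and with the standard scores. Cdk12 made up 73.7% and 74.6% of the pair.

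**Figure D3:**
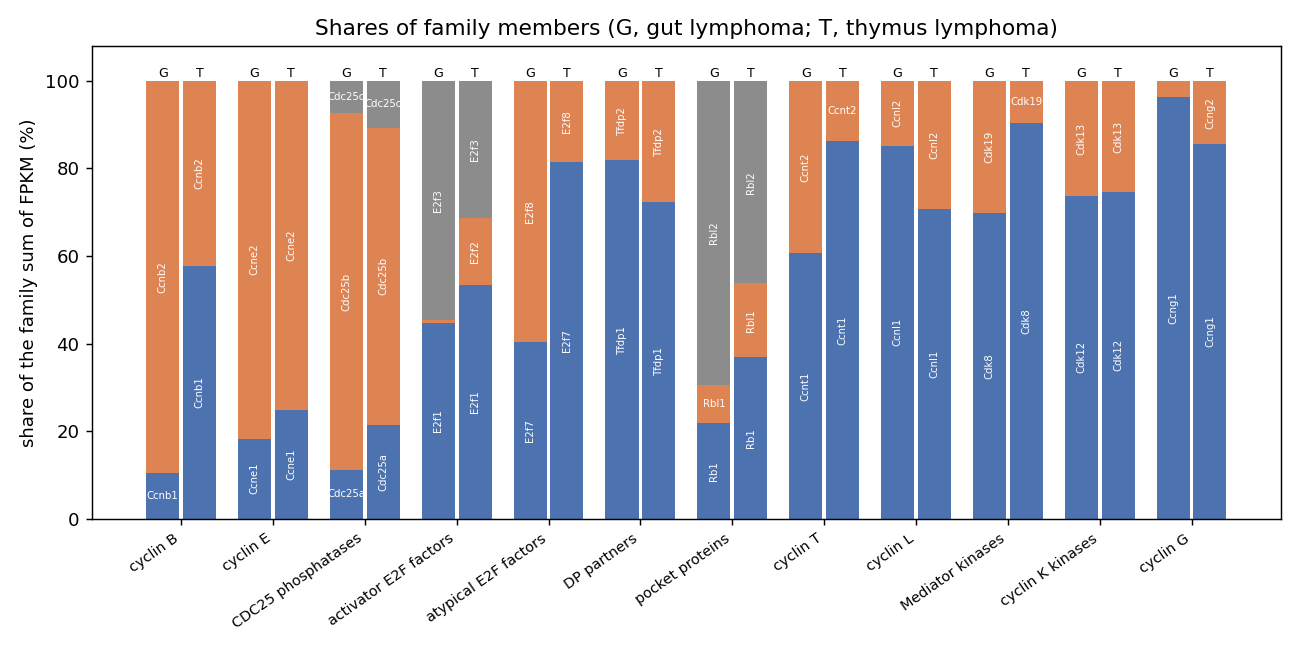
Share of each gene in the summed FPKM of its family (y axis, percent) in the gut lymphoma (G) and the thymus lymphoma (T), 1 library each. Ccnb1 takes 10.4% of cyclin B in one and 57.7% in the other, E2f7 takes 40.3% and 81.4% of the atypical E2F factors, and Cdk12 and Cdk13 keep their shares.

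The other members were mostly close between the lymphomas. Ccng2, cyclin G2, a gene induced by FOXO factors in cells that leave the cycle, was at 6.06 FPKM in the gut lymphoma and 21.6 in the thymus lymphoma, a difference of -1.68. Ccng1, a p53 target, was at 157 and 127 FPKM, and Cdk17 at 23.4 and 18.3. The 6 genes that carry only a partner's name all lay within 2-fold. Cdk5rap3 was at 77.2 and 46.2 FPKM and Cdk2ap1 at 85.2 and 62.4. Cdk2ap1 has a copy, Gm12184, at 99.4% identity, itself listed at 48.1 and 38.7 FPKM, so reads may be divided between them. Cdkn2aipnl stood at 132 and 151 FPKM and Cdkn2aip at 2.78 and 3.20. Cdk5rap1, a mitochondrial tRNA-modifying enzyme, was at 8.68 and 13.4 FPKM and Cdk5rap2, a centrosome protein, at 3.33 and 5.54. Cdkn2aipnl and Cdkn2aip changed direction with libraries brought to the same total, and Cdkn2aip, Cdk5rap1 and Cdk5rap2 did so with the standard scores. Among the members, Ccnl1, Ccnt1, Cdkn2aip and E2f8 overlap annotated antisense RNAs, whose reads cannot be set apart unless counting used the strand.

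Further genes of the pathway, listed by role outside the symbol rule, differed in how far they lay apart. Of 11 proliferation markers 10 were higher in the gut lymphoma, beside 51.4% of all genes, and 4 of them by 2-fold or more, beside 24.7%. The median of the markers was 0.98, with 0 past 4-fold, beside 19.9% of all genes. Mki67, the standard marker of dividing cells, was at 123 and 44.8 FPKM and Top2a at 195 and 85.9. Of 27 E2F target genes of S phase 18 were above 0, beside 51.4% of all genes, with a median of 0.31. Past 4-fold was 1 of the 27, beside 19.9% of all genes. That gene was Tyms, thymidylate synthase, at 17.3 and 225 FPKM. Of 13 CDK partners 1 was past 4-fold in each direction, beside 7.84% of all genes higher in the gut lymphoma and 12.0% in the thymus lymphoma. Ccnf, a cyclin that serves as a ubiquitin ligase subunit, was at 41.2 and 5.95 FPKM. Ccnc, the cyclin of CDK8 and CDK19, was at 23.7 and 127 FPKM, lower in the gut lymphoma as Cdk8 was.

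The ubiquitin ligases that destroy cyclins stood at a median of -0.08 over 21 genes, with 1 past 4-fold, beside 19.9% of all genes. This was Rbx1, the RING subunit of SCF, at 9.99 and 44.9 FPKM. Cdc20, the activator of the anaphase-promoting complex, was at 86.3 and 30.2 FPKM, a difference of 1.49. The 7 genes listed for the DREAM and MuvB complexes, which time E2F and CHR genes, had a median of -1.31. In this list Lin54, the subunit that binds CHR elements, was at 56.0 and 268 FPKM. The members E2f4 (1.22), Rbl2 (0.81), Tfdp1 (0.36) and Rbl1 (-0.67) also encode parts of DREAM and are not in that median. Foxm1, a factor that switches on mitotic genes and was counted in the DREAM and MuvB list, was at 18.8 and 56.4 FPKM, a difference of -1.54. Checkpoint and Polo kinases were split, 3 past 4-fold in each direction among 12, beside 7.84% and 12.0% of all genes. Chek2 (5.10 and 57.2 FPKM), Ttk (3.31 and 20.5) and Atr (18.0 and 87.3) were higher in the thymus lymphoma, and Bub1 (76.8 and 11.0), Aurka (12.8 and 2.29) and Atm (49.5 and 11.3) in the gut lymphoma.

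**Figure D4:**
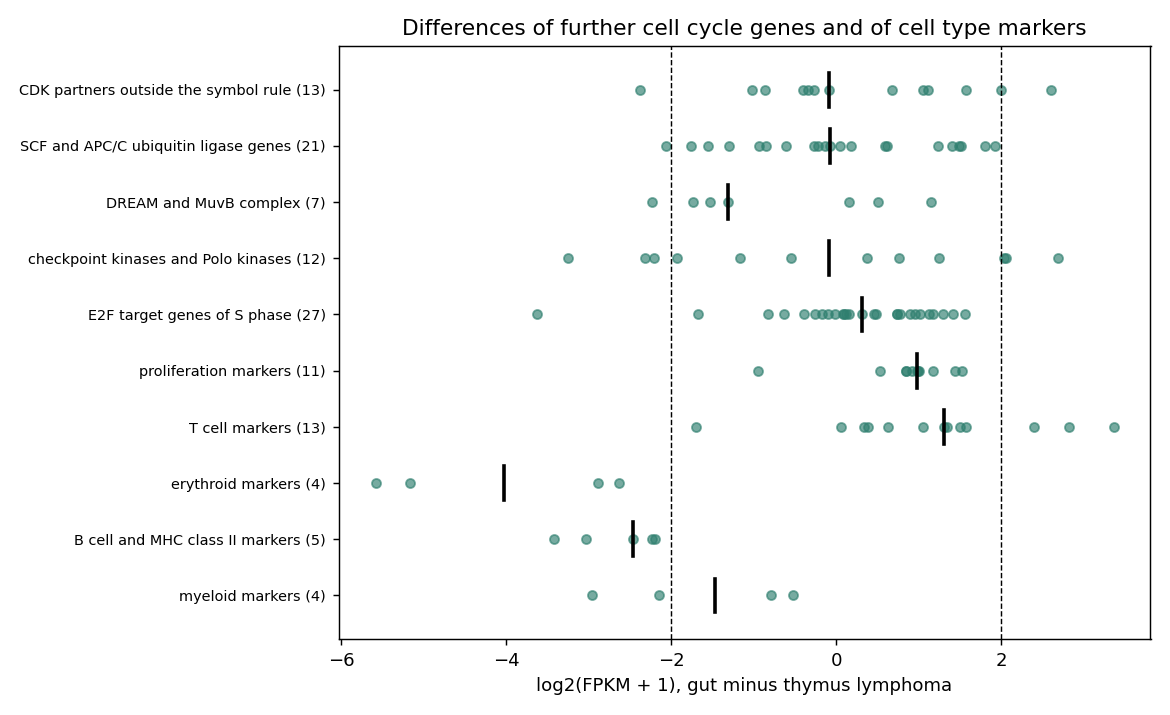
Difference in log2(FPKM + 1), gut minus thymus lymphoma, of each measured gene of the further cell cycle lists and of the cell type marker lists, with medians as black bars and 4-fold as dashed lines. Proliferation markers sit at a median of 0.98, the listed DREAM and MuvB genes at -1.31 and erythroid markers at -4.02.

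Markers of other cells differed between the same libraries. All 13 T cell markers were measured, with 12 above 0, beside 51.4% of all genes. The median of the 13 was 1.31, with a summed level of 4867 FPKM in the gut lymphoma and 2794 in the thymus lymphoma. The 4 measured erythroid markers of 10 summed to 2425 and 96390 FPKM, of which the highest single gene held 1916 and 92068. The 5 measured B cell and MHC class II markers of 12 summed to 330.2 and 2098 FPKM, and the 4 myeloid markers of 10 to 287 and 843. The highest myeloid marker held 113 and 504 of that, and 2 of the 4 lay within 2-fold, beside 49.8% of all genes. No listed marker with a value was at 0, since the table holds no value of exactly 0. Fewer cells of a type and less RNA per cell cannot be told apart in bulk tissue, and the part of these cells in the cyclin and CDK values was not tested.

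**Figure D5:**
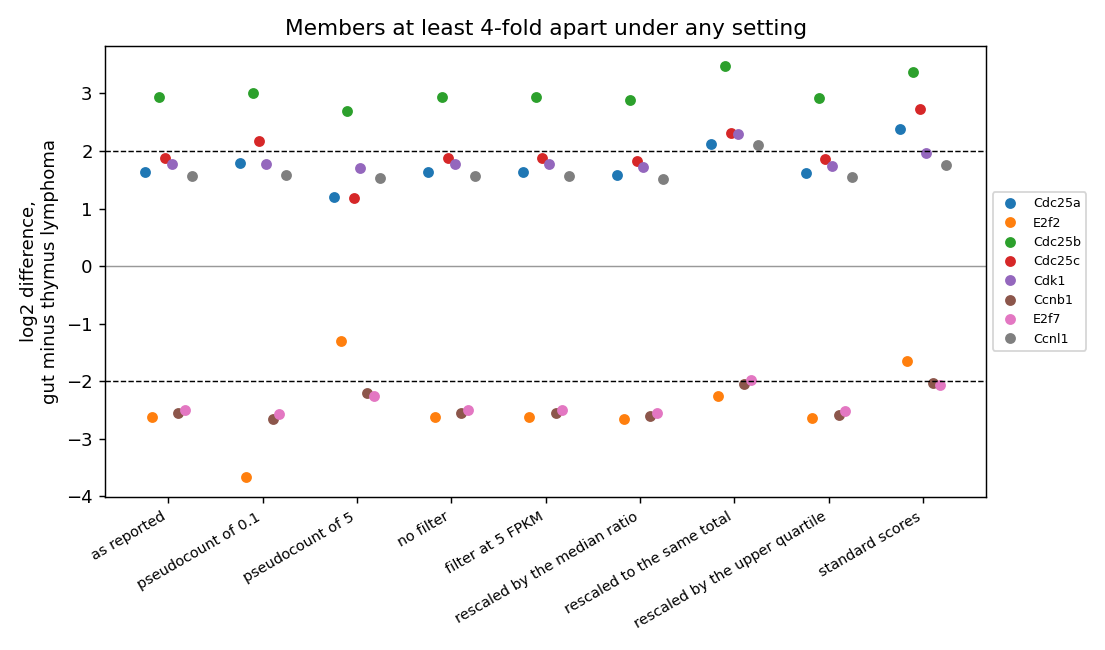
Difference in log2 units, gut minus thymus lymphoma, of the 8 members that were at least 4-fold apart (dashed lines) under any of 9 settings, as reported and 8 alternatives. Cdc25b and Ccnb1 stay past 4-fold throughout, E2f7 drops to -1.98 with libraries brought to the same total, and E2f2 moves between -3.66 and -1.31.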

How the data were processed

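RNA sequencing values of 2 tumour libraries were analysed. Per the labels' protocols, total RNA came from lysed tumour tissue and went into stranded mRNA libraries, whereas the series text speaks of sorted cells. The submitters' processing notes name mouse build mm9 and the tools TopHat, Cufflinks, GATK and Picard. For versions, annotation and gene selection, these sources give nothing.

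Per the file headers, the authors deposited an FPKM and a standard score per gene and library. The FPKM columns were read as log2(FPKM + 1), a log2 scale inferred from the values: they reach 20.65, and the smallest is 6.99 double-precision steps if the base is 2, close to whole, but 10.09 steps if it is e. The deposited score follows the log2 value linearly, with library SDs of 2.84 and 2.43, and was put back on a log2 scale with their mean. The deposited values hold no counts, so depth is unknown.

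A filter of 1 FPKM, to be reached in either library, removed 4 genes. All members were named, and of each further cell cycle list up to 4 genes past 4-fold. The cell type marker lists are given as sums and without naming single genes. Mki67, Top2a, Pkmyt1, Cdc20, Foxm1, Aurka, Atm and the overlapping neighbour genes were named after their values were seen. Gene family sums, shares and ratios, the promoter set and the motifs were also chosen then. The members and lists were chosen with earlier results of these data known. Rescaling divided and multiplied the libraries by the square root of the ratio of their totals, upper quartiles or median. Near copies were searched with BLAST+ 2.17.0 in GENCODE M21 transcripts at 95% identity over at least 300 bases. Python 3.11.15, numpy 2.4.6, pandas 2.3.3, scipy 1.17.1 and matplotlib 3.10.9 were used, and the difference calculation was tested on simulated data. Promoters matched by symbol for 37 of 45 members. No paired analysis was possible because each site has 1 library.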

Additional observations from a re-analysis of the deposited data

How the results depend on the processing

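Direction was the same under all 8 alternatives for 36 members, and the medians of the members and of the G1, S phase and mitotic roles stayed above 0. A pseudocount of 0.1 gave 2 members at least 4-fold higher in the gut lymphoma, adding Cdc25c, in place of 1, beside 8.87% of all genes. Libraries rescaled to the same total gave 5, and standard scores 3, beside 14.5% and 14.8% of all genes. At 2-fold 10 members were higher in the gut lymphoma and 8 in the thymus lymphoma, beside 24.7% and 25.5% of all genes. At 8-fold the counts were 0 and 0, and the share of all genes was not computed. These folds are of FPKM + 1. By the ratio of FPKM alone, Cdc25b was 8.09-fold higher in the gut lymphoma and E2f2 14.5-fold higher in the thymus lymphoma. With the same total the medians moved to 0.85 over all members, 1.35 for G1 genes, 0.995 for S phase genes and 1.85 for mitotic genes, while the median of all genes moved by 0.52. That scaling is set by the libraries' summed FPKM, and why the sums differ was not tested. Over the genes kept the sum was 3.42e+06 in the gut lymphoma and 4.97e+06 in the thymus lymphoma. The highest single gene held 816954 and 1.65e+06 of it, so this scaling leans on few genes. Rescaling by the median ratio or the upper quartile, no filter and a filter at 5 FPKM kept both counts at 1 and 3. Over all genes the shares at these settings were 7.45 to 8.02% and 12.0 to 12.5%. No paired analysis was possible because each site has 1 library, so no replicate could be left out either. Without counts, depth is unknown and low genes such as E2f2, Cdc25c and Cdkn2aip are the least certain.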

Other observations

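The order of the members by level was partly shared. Across the 45 genes the lymphomas gave Pearson's r = 0.74 on log2 values and Spearman's rho = 0.71, beside 0.69 and 0.62 over all 8245 genes kept. This is a description across genes, which are not independent replicates and share their libraries. Cdc25b ranked 6th among the members in the gut lymphoma and 37th in the thymus lymphoma. E2f7 ranked 32nd and 6th, and Ccnb1 37th and 12th. Ccnd3 ranked 1st and Ccng1 5th in both.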
